A study of Mus musculus with 25 samples.

Results

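The receptors by which a melanoma cell holds on to the extracellular matrix were described in 5 murine melanoma lines from the RNA of cultured cells. The 34 genes were taken by their symbols and comprised 18 integrin alpha chains, 8 integrin beta chains, the 4 syndecans, the hyaluronan receptor Cd44, the collagen-binding kinases Ddr1 and Ddr2, and dystroglycan (Dag1). All 34 were found among the 55385 genes of the deposited tables, of which 55144 could be given a symbol. An integrin is a pair of an alpha and a beta chain that spans the membrane, binds a matrix protein or a partner on another cell outside and connects to talin, kindlin and the actin cytoskeleton inside. The alpha chain largely sets what is bound, and the pairs fall into receptors for laminin, for collagen, for the RGD motif of fibronectin and vitronectin, and for counter-receptors of leukocytes. Syndecans carry heparan sulfate chains and act beside integrins, while dystroglycan binds laminin and agrin through its sugar chains. In melanoma, matrix receptors take part in the attachment, migration and organ colonization of the cells.

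Libraries were made from 25 cultures, 5 biological replicates of each of the lines D4M, HCmel12, RET, WT31 and B16F10 luc2, harvested untreated at a confluency of 50%. The study injected these lines into mice and divided them into high and intermediate metastatic (HIM-) melanoma, namely WT31, B16F10 luc2 and RET, and low metastatic (LM-) melanoma, namely D4M and HCmel12, by their colonization of the liver. WT31 was derived from melanoma of Tyr::Nras Q61K/°; INK4a-/- mice, RET from MT/RET transgenic mice, D4M from mice with Tyr::CreER and Braf CA among their alleles and HCmel12 from a primary melanoma of HGF-CDK4(R24C) mice, whereas B16F10 luc2 is the luciferase-expressing form of the long-established B16F10 line. The 3 lines of HIM-melanoma were kept in RPMI medium with 10% fetal calf serum, HCmel12 in RPMI with 10% serum and further supplements, and D4M in Advanced DMEM/F-12 with 5% serum, so that line and medium cannot be told apart for D4M and HCmel12. Each genotype is represented by a single line, and the tests describe differences between these 5 lines and not between genotypes.

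The libraries held from 24199083 to 25843286 estimated counts in total. Values are given as CPM (counts divided by the library total times its TMM factor, times 1000000), as mean ± SD over n = 5 libraries per line unless the 5 libraries are listed in the order of their replicate numbers. A count of 3 corresponds to between 0.111 and 0.138 CPM and was taken as the smallest detectable amount, which covers counting error only. Replicates of a line were more alike (correlation of log2 CPM at least 0.9785) than libraries of different lines (at most 0.948). The melanocyte markers Mitf, Sox10, Pax3, Dct, Tyr, Tyrp1, Pmel, Mlana and Slc45a2 summed to between 12510 and 31520 CPM in the libraries of WT31, B16F10 luc2, RET and HCmel12, but to between 26.6 and 83.2 CPM in D4M, where the label as melanoma cells is not matched by these markers. D4M replicate 1 held the highest of the D4M sums and HCmel12 replicate 4 the highest of the HCmel12 sums. Counts of called members and printed calls that change without them are given without them below. These are bulk libraries, in which fewer cells with a transcript and less of it per cell cannot be told apart. The 6 fibroblast markers, among them Col1a1, Col1a2, Pdgfra and Pdgfrb, summed to between 479.7 and 735.3 CPM in D4M and to at most 101.8 CPM in any library of the other lines, and move with the D4M results below. The other 2 of the list, Dcn and Lum, had means of 0.334 and 0 CPM in D4M, so that the sum is that of the first 4 markers. Their part in these results was not tested. The leukocyte marker Ptprc reached at most 3 counts in any library, as did Cd3e, Adgre1 and Tyrobp, and in each line 3 to 5 of the 10 leukocyte markers had more than 3 counts in some library.

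Of the 34 members, 28 had enough counts for a test. The other 6 were Itga11 (at most 14 counts in a library), Itgad (3), Itgae (8), Itgam (4), Itgax (6) and Itgb6 (2.01). Of these, Itgad, Itgae, Itgam and Itgax are alpha chains of leukocyte integrins, Itga11 is a collagen receptor of fibroblasts, and Itgb6 is an epithelial chain. Among the 28 tested members, 20 had at least 10 counts in every library and 8 passed the filter through some of the lines only. These 8 had to differ between lines to be tested at all, so that the counts below describe the members and do not support a statement about them.

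Most matrix receptors were called as different between most pairs of lines, as were most genes. With a Benjamini-Hochberg adjusted p under 0.05 in the voom-limma fit, WT31 and B16F10 luc2 differed in 23 of the 28 tested members (82.1%), beside 72.8% of all 15247 tested genes. WT31 and RET differed in 25 members (89.3%, all genes 73.2%). Relative to D4M, 27 members were called in WT31 (96.4%, all genes 76.1%), 27 in B16F10 luc2 (96.4%, all genes 77.7%) and 24 in RET (85.7%, all genes 77.1%). Relative to HCmel12, 27 members were called in WT31 (96.4%, all genes 70.4%), 22 in B16F10 luc2 (78.6%, all genes 69.1%) and 18 in RET (64.3%, all genes 67.2%). B16F10 luc2 and RET differed in 20 members (71.4%, all genes 51.5%) and D4M and HCmel12 in 25 (89.3%, all genes 72.5%). Since most genes differed between any 2 lines, the sizes of the differences are given as well. The median absolute log2 fold change of the tested members lay between 0.65 (RET against HCmel12) and 2.75 (WT31 against D4M), whereas that of all tested genes lay between 0.31 and 0.73. The span from the lowest to the highest line had a median of 4.34 on the log2 scale for the members and of 1.41 for all tested genes, and it was at least 2 for 21 members (75%, all genes 38.64%). These values include the 8 members that had to differ to be tested, whose median span was 7.13. Over the 20 members with at least 10 counts in every library the median span was 3.05, beside 0.95 for the 10497 tested genes of which this was true.

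**Figure D1:**
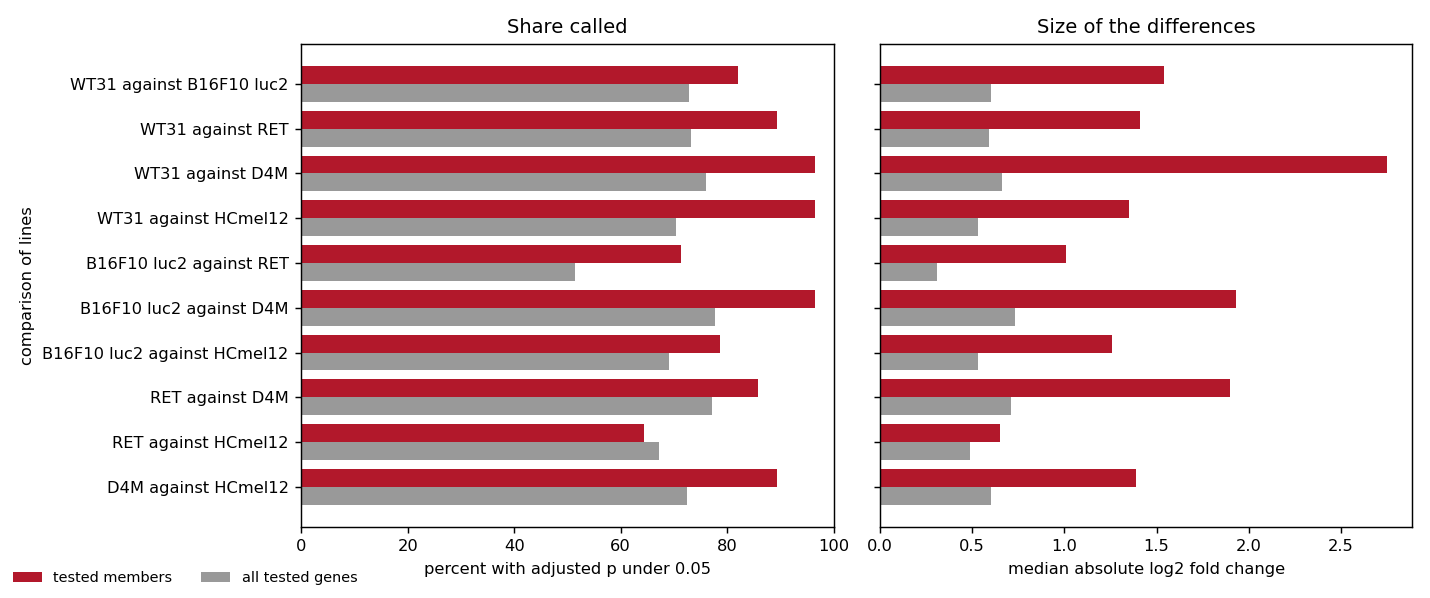
Percent of the 28 tested members (red) and of all tested genes (grey) with an adjusted p under 0.05 in each of the 10 comparisons of lines (left), and the median absolute log2 fold change of both sets (right). Members were called at a higher rate than all genes in every comparison but RET against HCmel12, where 64.3% of members and 67.2% of all genes were called, and their median difference was larger in each.

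D4M was the line in which a member was most often highest. For 19 of the 28 tested members the fitted mean was highest in D4M (67.9%, all genes 27.4%), and for 17 of them (60.7%) D4M was called above each of the other 4 lines, which held for 20% of all tested genes. WT31 had the highest fitted mean for 5 members (17.9%, all genes 22.2%), namely Itga4, Itga8, Itgb8, Sdc3 and Dag1. RET was highest for Itgal and Itgb4 (7.14%, all genes 15.8%), B16F10 luc2 for Itga9 and Ddr1 (7.14%, all genes 18%), and HCmel12 for none (all genes 16.6%). The TMM factors were lowest in D4M, with a mean of 0.9001, and highest in WT31, with a mean of 1.052. Scaling by the library total alone lowered D4M by a median over all genes of 0.23 on the log2 scale relative to WT31, 0.15 to B16F10 luc2, 0.2 to RET and 0.18 to HCmel12. The share of WT31-against-D4M calls that were higher in WT31 was 49.3% with TMM factors and 62.4% with the library total, and the share of D4M-against-HCmel12 calls higher in D4M was 50.8% and 39.6%. Under the library total, 14 members in place of 17 were called above each other line in D4M (50%, all genes 15.8%).

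**Figure D2:**
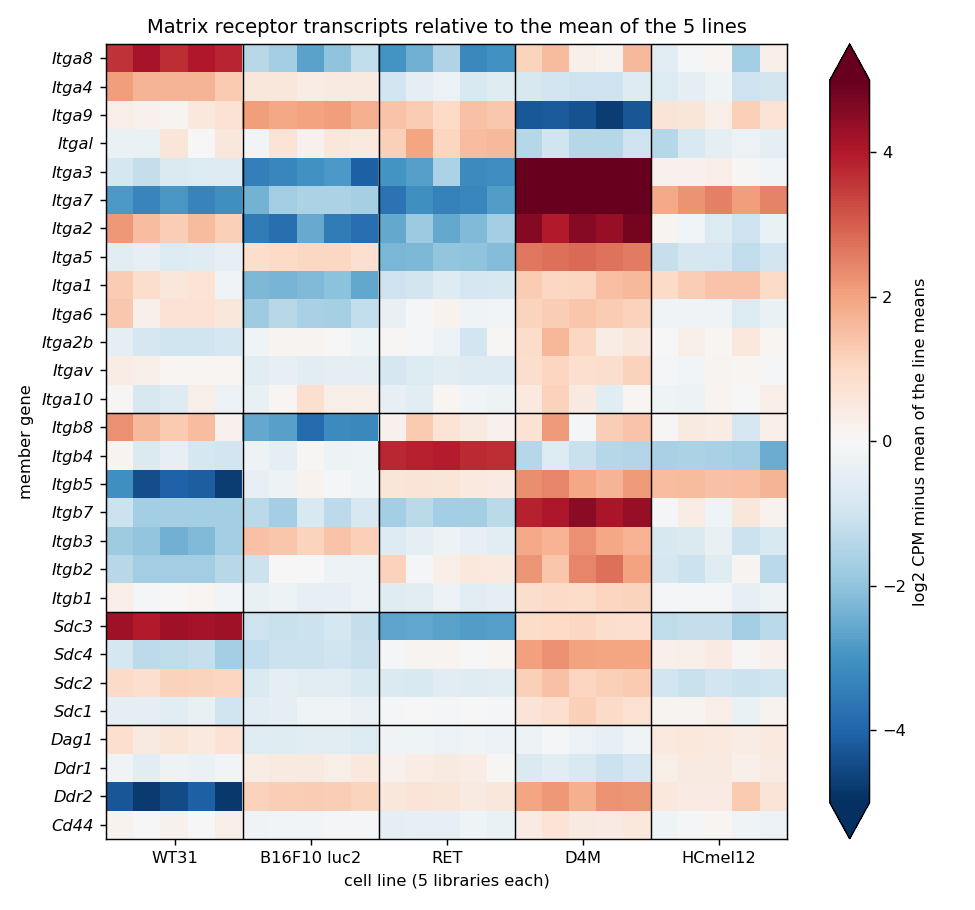
Heat map of the 28 tested members in the 25 libraries, as log2 of CPM plus the value of 3 counts, minus the mean of the 5 line means. Red cells are above and blue cells below that mean, colours end at 5 and -5, and horizontal lines divide alpha chains, beta chains, syndecans and the other receptors. D4M is the highest line for 19 of the 28 members, and WT31 stands out for Sdc3, Itga8, Itgb5 and Ddr2.

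Among the laminin receptors, Itga3 and Itga7 were higher in D4M than in any other line by more than an order of magnitude, while Itga6 was abundant in all lines. Itga3 (GRCm38 chr11:95044474-95076801) pairs with Itgb1 to bind laminins of the epithelial basement membrane. Its 5 D4M libraries had 529, 482, 684, 471 and 468 CPM and its HCmel12 libraries 5.53, 5.5, 6.04, 5.0 and 4.35 CPM. The WT31 libraries had 2.54, 2.01, 2.79, 2.88 and 2.99 CPM, the B16F10 luc2 libraries 0.317, 0.373, 0.453, 0.536 and 0.154 CPM and the RET libraries 0.474, 0.594, 1.5, 0.40 and 0.424 CPM. The groups of D4M, HCmel12 and WT31 do not overlap with one another or with the other lines, and B16F10 luc2 and RET overlap. D4M exceeded HCmel12, the next line, 98.8-fold (log2 fold change 6.63, standard error 0.16, adjusted p = 2.31e-22), and B16F10 luc2, the lowest, 1460-fold (log2 fold change 10.51, standard error 0.35, adjusted p = 1.91e-19). B16F10 luc2 and RET did not pass against each other (adjusted p = 0.167), but did with the replicate number as a block (adjusted p = 0.0134) and in the DESeq2 Wald test (adjusted p = 0.00656). WT31 against HCmel12 passed (log2 fold change -1.0, standard error 0.23, adjusted p = 0.000461), except when no filter on low counts was set (adjusted p = 0.0564).

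The RefSeq promoter of Itga3 that lies at the gene's outer start, chr11:95076665-95076964 on the minus strand, is shown because this receptor differed most between the lines. Promoters here run from 250 bases before to 50 bases after the start and are printed 5′ to 3′ (GRCm38.p6), with capitals for the GC box (the letters GGGCGG, or CCGCCC for the other strand). This window holds 3 such matches and no AP-1 motif (TGANTCA) or E-box (CACGTG). Another RefSeq promoter of Itga3, chr11:95069149-95069448, is not printed and holds 1 AP-1 match and 1 GC box match.
Itga3: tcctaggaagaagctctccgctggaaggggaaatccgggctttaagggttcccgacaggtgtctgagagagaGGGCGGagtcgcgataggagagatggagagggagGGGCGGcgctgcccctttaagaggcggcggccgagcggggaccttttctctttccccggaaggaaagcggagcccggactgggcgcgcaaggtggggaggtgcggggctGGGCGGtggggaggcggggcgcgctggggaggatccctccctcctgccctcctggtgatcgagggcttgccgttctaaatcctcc
GC boxes were found in 35.7% of the 32851 RefSeq promoters searched on both strands and in 18 of the 31 promoters of the 25 members that have one in the table. The AP-1 motif was found in 7.81% of all promoters and in 4 of the 31, and the E-box in 7.15% and in 0 of the 31. A match describes these letters only.

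Itga7, the laminin receptor chain of muscle, followed the same order at its upper end. The D4M libraries had 185, 191, 242, 204 and 152 CPM and the HCmel12 libraries 12.2, 15.5, 19.1, 14 and 18.7 CPM. B16F10 luc2 had 0.516, 0.87, 0.991, 0.99 and 0.926 CPM, WT31 0.313, 0.203, 0.31, 0.192 and 0.264 CPM and RET 0.118, 0.26, 0.184, 0.211 and 0.347 CPM. All values of B16F10 luc2 lay above those of WT31 and RET, which overlap, and all of these were below 1 CPM. D4M was 12.3-fold above HCmel12 (log2 fold change 3.62, standard error 0.11, adjusted p = 6.12e-20), and HCmel12 was 18.4-fold above B16F10 luc2 (log2 fold change 4.2, standard error 0.29, adjusted p = 1.49e-12). WT31 and RET did not pass the test against each other (adjusted p = 0.725).

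Itga6, which pairs with Itgb1 or Itgb4, was the alpha chain with the highest mean TPM in every line. It had 634, 293, 411, 404 and 368 CPM in WT31, 71.8, 94, 80.8, 78.6 and 104 CPM in B16F10 luc2 and 193, 238, 280.5, 215 and 225 CPM in RET. In D4M it had 542, 576, 645, 603 and 557 CPM and in HCmel12 221, 218, 219, 154 and 194 CPM. Replicate 1 of WT31 lay within the D4M range and the other 4 below all of it, RET and HCmel12 overlap, and B16F10 luc2 was below all other libraries. D4M exceeded WT31 by a factor of 1.43 (adjusted p = 0.00192, and scaled by the library total alone, adjusted p = 0.069), and HCmel12 exceeded B16F10 luc2 by a factor of 2.34 (adjusted p = 3.92e-08), whereas RET and HCmel12 did not pass (adjusted p = 0.228). On the TPM scale D4M did not pass against WT31 (adjusted p = 0.176 with log2(TPM + 0.1) and 0.173 with log2(TPM + 1) in limma). Of the 31-base sequences of the Itga6 transcripts, 6.2% also occur in transcripts of other genes.

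For melanoma cell lines, the study's text names 2 integrin chains, Itga2 and Itga4. Itga2 (chr13:114833081-114932100), which with Itgb1 forms a receptor for collagen, had its highest values in D4M, with 58.9, 38.2, 58.2, 50.2 and 67.4 CPM. WT31 followed with 11, 7.06, 5.58, 7.23 and 5.5 CPM and HCmel12 with 2.57, 2.07, 1.38, 1.05 and 1.83 CPM. RET had 0.277, 0.557, 0.276, 0.40 and 0.617 CPM and B16F10 luc2 0.0793, 0.0414, 0.288, 0.0825 and 0.0384 CPM, the latter from counts of 2, 1, 7, 2 and 1. The ranges of D4M, WT31, HCmel12 and RET do not overlap, while B16F10 luc2 replicate 3 reached into the range of RET. Of HIM-melanoma, WT31 was thus above HCmel12 and below D4M, and B16F10 luc2 and RET were below both. All 10 pairs of lines passed the test. D4M exceeded WT31 7.61-fold (log2 fold change 2.93, standard error 0.17, adjusted p = 3.08e-14), WT31 exceeded HCmel12 4.1-fold (log2 fold change 2.04, standard error 0.31, adjusted p = 1.62e-06), HCmel12 exceeded RET 4.06-fold (log2 fold change 2.02, standard error 0.48, adjusted p = 0.000627) and RET exceeded B16F10 luc2 4.15-fold (log2 fold change 2.05, standard error 0.70, adjusted p = 0.0157). The last of these differences rests on few counts, and it fell under 2 on the log2 scale without B16F10 luc2 replicate 2 (1.88) or 5 (1.84) or RET replicate 2 (1.94) or 5 (1.91).

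The promoter of Itga2, chr13:114932051-114932350 on the minus strand, is given because the study names this chain and all pairs of lines differed for it.
Itga2: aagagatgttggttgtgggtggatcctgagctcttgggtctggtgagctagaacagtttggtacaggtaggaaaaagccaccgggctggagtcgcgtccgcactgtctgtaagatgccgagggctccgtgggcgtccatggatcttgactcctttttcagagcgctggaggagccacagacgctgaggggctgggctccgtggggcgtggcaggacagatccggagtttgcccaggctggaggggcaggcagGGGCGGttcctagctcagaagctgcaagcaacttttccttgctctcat
It holds 1 GC box match. The start of Itga2 lies 20996 bases beyond the end of its neighbour Itga1, and both genes are on the minus strand.

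Itga1, also a collagen receptor with Itgb1, did not follow Itga2. It had 84.9, 71.8, 74.4, 99.9 and 107 CPM in D4M, 68.3, 82.4, 93.5, 93.9 and 68.7 CPM in HCmel12 and 85.3, 64.1, 51.9, 56.5 and 31.3 CPM in WT31. RET had 17.3, 18.7, 22.3, 19.5 and 19.9 CPM and B16F10 luc2 7.22, 6.98, 7.46, 8.48 and 5.63 CPM. WT31 overlaps with both D4M and HCmel12, while RET lies below all 3 and B16F10 luc2 below RET. D4M and HCmel12 did not pass against each other (adjusted p = 0.577). WT31 was below HCmel12 by a factor of 1.47 (log2 fold change 0.55, standard error 0.17, adjusted p = 0.0043) and B16F10 luc2 by a factor of 11.4 (log2 fold change 3.51, standard error 0.26, adjusted p = 3.56e-12). On the TPM scale WT31 did not pass against HCmel12 (adjusted p = 0.116 with log2(TPM + 0.1) and 0.0977 with log2(TPM + 1) in limma). Itga10, the collagen receptor of cartilage, differed least of all members, with line means from 0.916 ± 0.187 CPM in RET to 1.54 ± 0.721 CPM in D4M, and of the 10 pairs only WT31 against D4M passed (adjusted p = 0.0446). This call was lost without WT31 replicate 2, 3 or 5 or D4M replicate 1, 2 or 3, with adjusted p up to 0.161. With the replicate number as a block it was lost as well (adjusted p = 0.0602), as it was under the library total (adjusted p = 0.177). The same held with no filter on low counts (adjusted p = 0.0678) and when only the libraries of the compared lines were fitted (adjusted p = 0.106). For Itga10, 31.8% of the 31-base sequences are shared with other genes, so that its counts are uncertain.

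Itga4 (chr2:79255426-79333123) forms the receptor for VCAM-1 and a splice form of fibronectin with Itgb1, and the gut-homing receptor with Itgb7. WT31 had 724, 556, 554, 554 and 422 CPM, B16F10 luc2 253, 249, 222, 232 and 229 CPM and RET 88.3, 122, 137, 99.3 and 110.3 CPM. D4M had 97.8, 88, 82.7, 83.3 and 109 CPM and HCmel12 104, 121, 147, 82.6 and 90.3 CPM. Every WT31 library exceeded every library of the other lines, every B16F10 luc2 library exceeded those of RET, D4M and HCmel12, and these last 3 lines overlap. WT31 was 2.34-fold above B16F10 luc2 (log2 fold change 1.23, standard error 0.13, adjusted p = 6.25e-09), and B16F10 luc2 was 2.15-fold above RET (log2 fold change 1.1, standard error 0.14, adjusted p = 1.86e-07), 2.22-fold above HCmel12 (log2 fold change 1.15, standard error 0.14, adjusted p = 3.58e-08) and 2.58-fold above D4M (log2 fold change 1.37, standard error 0.14, adjusted p = 1.09e-09). RET did not pass the test against D4M (adjusted p = 0.0855) or HCmel12 (adjusted p = 0.789), so that Itga4 did not separate HIM- and LM-melanoma in every comparison. RET passed against D4M without RET replicate 1 (adjusted p = 0.0305) and under the library total (adjusted p = 0.00424). Its 31-base sequences are shared at 8.85%, mainly with the adjoining gene Cerkl.

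The promoter of Itga4, chr2:79255176-79255475 on the plus strand, is printed as that of the other chain the study names, and holds 1 GC box match.
Itga4: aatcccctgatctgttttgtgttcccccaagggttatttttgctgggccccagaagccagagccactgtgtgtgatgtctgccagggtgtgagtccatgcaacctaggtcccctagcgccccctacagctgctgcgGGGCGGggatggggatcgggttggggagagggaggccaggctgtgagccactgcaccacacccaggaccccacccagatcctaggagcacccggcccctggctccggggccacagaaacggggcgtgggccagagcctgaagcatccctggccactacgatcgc

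Itga9, which forms a subfamily with Itga4 and binds tenascin-C and osteopontin with Itgb1, was far lower in D4M than in the other lines. The D4M libraries had 0.827, 0.844, 0.756, 0.533 and 0.809 CPM, from counts of 18, 19, 17, 12 and 19. B16F10 luc2 had 76.9, 70, 72.5, 77.9 and 62.7 CPM, RET 48.8, 43.8, 36.5, 49.5 and 45.6 CPM, HCmel12 28.5, 27.8, 21.8, 40.8 and 29.4 CPM and WT31 22.8, 20.9, 20.1, 26.1 and 29.9 CPM. D4M is separated from all other libraries by more than an order of magnitude, and HCmel12 overlaps with WT31 and RET. WT31, the next line in the fit, exceeded D4M 31-fold (log2 fold change 4.95, standard error 0.34, adjusted p = 7.57e-13) and B16F10 luc2 exceeded D4M 93.7-fold (log2 fold change 6.55, standard error 0.34, adjusted p = 1.52e-15). Of the melanocyte markers, 4 of 9 were below 1 CPM on average in D4M, and 7 of 9 without D4M replicate 1, the exceptions then being Mitf and Pax3. Their part in the difference was not tested.

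Of the receptor chains for the RGD motif, Itga5, Itgav and Itga2b had their highest mean CPM in D4M and Itga8 in WT31. Itga5, the fibronectin receptor chain, had 368 ± 23.5 CPM in D4M, 109 ± 6.58 in B16F10 luc2, 38.6 ± 3.14 in WT31, 27.8 ± 3.31 in HCmel12 and 12.6 ± 1.31 in RET, and all 10 pairs of lines passed. The span from RET to D4M was 29.2-fold (log2 fold change 4.87, standard error 0.09, adjusted p = 1.42e-24). Itgav, the vitronectin receptor chain, varied less, from 84.5 ± 5.88 CPM in RET to 265 ± 25.7 CPM in D4M, and all 10 pairs passed here too. The smallest of these differences was that between B16F10 luc2 and RET, a factor of 1.13 (adjusted p = 0.0365). It was lost without any 1 of B16F10 luc2 replicates 2, 4 and 5 and RET replicates 1, 2, 4 and 5, with adjusted p up to 0.12. The call was also lost under the library total (adjusted p = 0.145) and with no filter on low counts (adjusted p = 0.163). On the TPM scale it did not pass either (adjusted p = 0.129 with log2(TPM + 0.1) and 0.136 with log2(TPM + 1) in limma). Itga2b, the platelet chain, was low in all lines, from 0.235 ± 0.0614 CPM in WT31 to 1.16 ± 0.483 CPM in D4M. In TPM, however, Itga2b had its highest mean in HCmel12 (1.16 ± 0.17), beside 0.86 ± 0.37 in D4M (n = 4).

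Itga8, a receptor chain for nephronectin and fibronectin, was highest in WT31. The WT31 libraries had 74.4, 107, 78.8, 97.3 and 84.7 CPM and the D4M libraries 13, 18.3, 7.34, 6.75 and 18.6 CPM. HCmel12 had 4.09, 5.81, 6.4, 1.74 and 7.36 CPM, B16F10 luc2 2.22, 1.74, 0.824, 1.36 and 2.5 CPM and RET 0.632, 1.0, 2.01, 0.52 and 0.617 CPM. No WT31 library overlaps with another line, the lowest D4M libraries reach into the HCmel12 range, and the lowest HCmel12 library lies within the overlapping ranges of B16F10 luc2 and RET. WT31 was 7.46-fold above D4M (log2 fold change 2.9, standard error 0.23, adjusted p = 8.99e-12) and 102-fold above RET (log2 fold change 6.67, standard error 0.50, adjusted p = 5.52e-12).

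Itgal, the alpha chain of the leukocyte integrin LFA-1, had a higher maximum count than the leukocyte alpha chains Itgad, Itgae, Itgam and Itgax. It was still near the limit of detection. RET had 0.711, 1.3, 0.63, 0.92 and 1.0 CPM, B16F10 luc2 0.198, 0.456, 0.288, 0.412 and 0.384 CPM and WT31 0.152, 0.152, 0.426, 0.231 and 0.406 CPM. HCmel12 had 0, 0.0797, 0.121, 0.161 and 0.122 CPM and D4M 0, 0.0444, 0, 0 and 0.0426 CPM, where 3 libraries had 0 counts. RET lies above all other libraries, and WT31 overlaps with B16F10 luc2 and, at its lower end, with HCmel12. All 6 comparisons of HIM- with LM-melanoma passed, the weakest being WT31 against HCmel12 (log2 fold change 1.51, standard error 0.48, adjusted p = 0.00726). Itgal was too low to be tested on the TPM scale, and too low for WT31 and B16F10 luc2 when only the libraries of the compared lines were fitted. The summed counts gave a ratio of RET to D4M of 51.8-fold (95% counting interval 14 to 432), and of WT31 to D4M of 15.4-fold (95% counting interval 3.97 to 132). Fitted fold changes against D4M depend on the prior count at these levels.

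**Figure D3:**
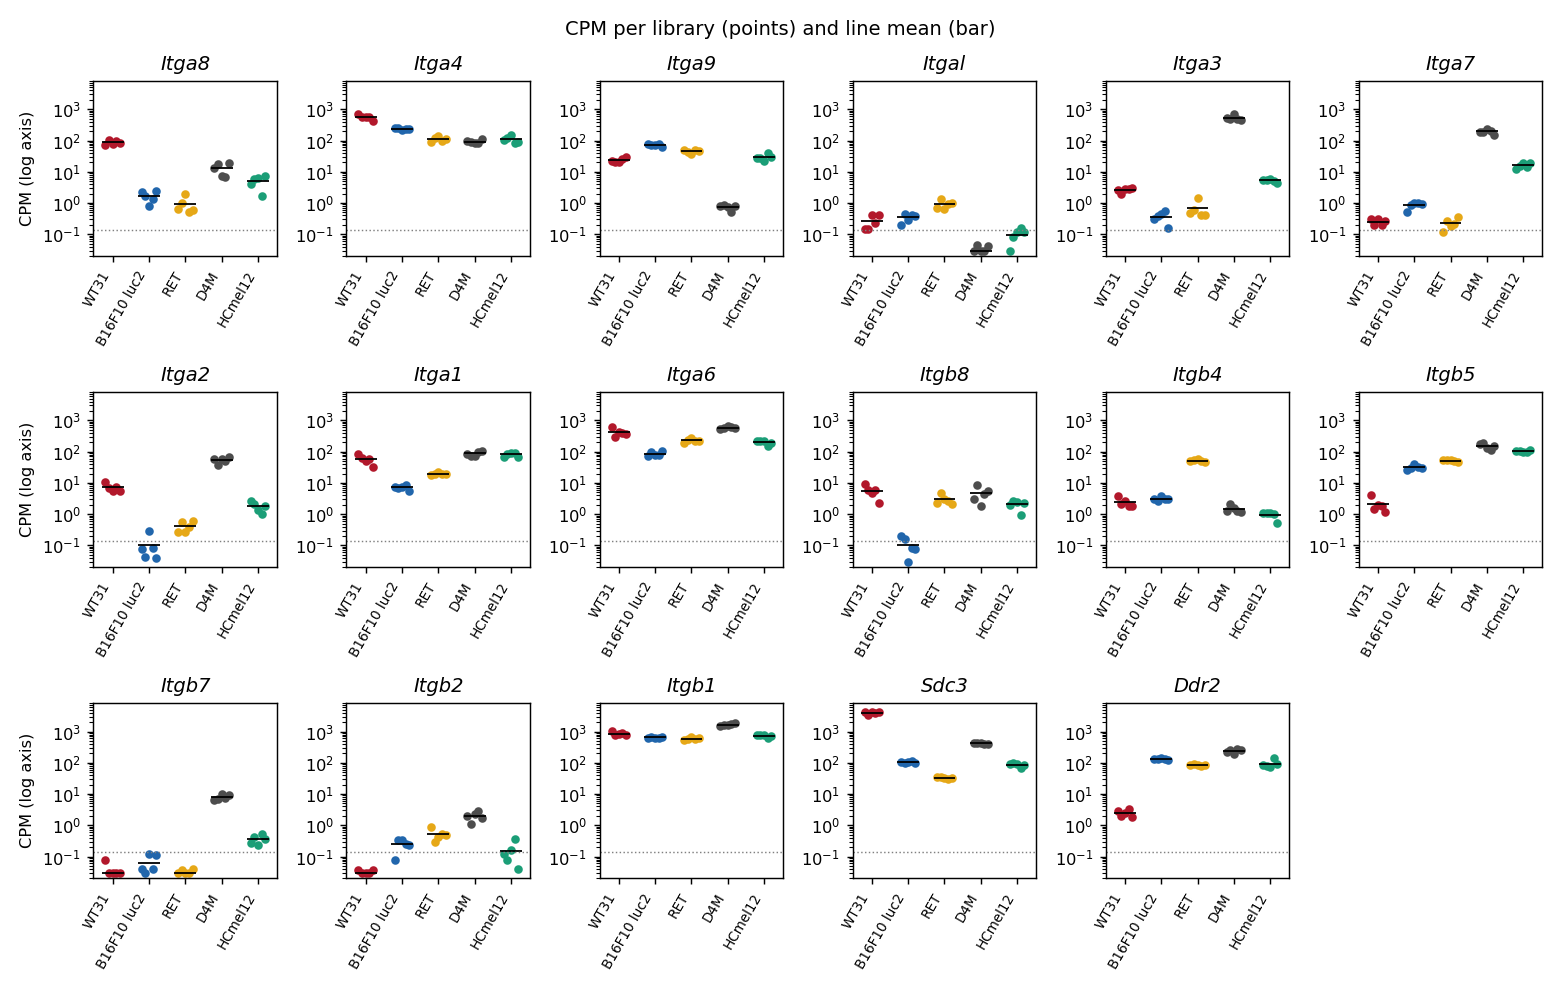
CPM of 17 members in each of the 25 libraries on a log axis, with the 5 libraries of a line as points and the line mean as a bar. The dotted line is the value of 3 counts in the library with the highest such value (0.138 CPM), and values and means under 0.03 CPM are drawn at 0.03. WT31 points do not overlap with any other line for Itga8, Itga4, Sdc3, Itgb5 and Ddr2, nor do D4M points for Itga3, Itga7, Itga2, Itgb7 and Itga9, RET points for Itgb4 or B16F10 luc2 points for Itgb8.

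Among the beta chains, Itgb1, the common partner of most alpha chains, was the most abundant in every line. D4M had 1542, 1611, 1592, 1764 and 1817 CPM, WT31 1033, 779.6, 814, 887 and 753 CPM and HCmel12 767, 778, 787, 623 and 703 CPM. B16F10 luc2 had 638, 689, 619.5, 633 and 682 CPM and RET 541, 579.7, 671, 572 and 616 CPM. D4M lies clear of the other lines, WT31 overlaps with HCmel12, and HCmel12 overlaps with B16F10 luc2 and RET. D4M exceeded WT31 by a factor of 1.96 (log2 fold change 0.97, standard error 0.08, adjusted p = 1.4e-11), and HCmel12 and B16F10 luc2 (adjusted p = 0.0676) as well as B16F10 luc2 and RET (adjusted p = 0.159) did not pass. HCmel12 passed against B16F10 luc2 without HCmel12 replicate 4 (adjusted p = 0.0117) or WT31 replicate 1 (adjusted p = 0.0383). It also passed under the library total (adjusted p = 0.0437), with DESeq2 size factors (adjusted p = 0.0295) and in the DESeq2 Wald test (adjusted p = 0.0246). The same held when only the libraries of the compared lines were fitted (adjusted p = 0.0189) or 10 counts were required in every library (adjusted p = 0.0405).

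Itgb5, a partner of Itgav in a receptor for vitronectin, was low in WT31. The WT31 libraries had 4.02, 1.48, 1.97, 1.84 and 1.17 CPM. The B16F10 luc2 libraries had 25.9, 29.5, 39.6, 33.3 and 30.3 CPM and the RET libraries 53.1, 54.7, 53.2, 49.5 and 45.7 CPM. HCmel12 had 101, 105, 96.4, 99.4 and 113 CPM and D4M 176, 192, 134, 114 and 153 CPM. The 5 ranges do not overlap, in the order WT31, B16F10 luc2, RET, HCmel12 and D4M, and all 10 pairs passed. B16F10 luc2 was 16.3-fold above WT31 (log2 fold change 4.03, standard error 0.28, adjusted p = 1e-12), and HCmel12 was 2.01-fold above RET (log2 fold change 1.01, standard error 0.12, adjusted p = 2.88e-08), the smallest of the 6 differences between HIM- and LM-melanoma. Itgb5 shares 7.86% of its 31-base sequences with other genes. Itgb3, the other main partner of Itgav, was also lowest in WT31, with 6.03 ± 1.24 CPM, and had 14.7 ± 2.66 CPM in HCmel12, 17.8 ± 1.85 in RET, 61.1 ± 6.42 in B16F10 luc2 and 93.7 ± 15.6 in D4M. RET and HCmel12 did not pass for Itgb3 (adjusted p = 0.0805), but did without HCmel12 replicate 3 (adjusted p = 0.0251) or D4M replicate 3 (adjusted p = 0.0434).

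Itgb8, the chain with which Itgav activates latent TGF-beta, was lower in B16F10 luc2 than in the other lines. There it had 0.198, 0.166, 0, 0.0825 and 0.0769 CPM, from counts of 5, 4, 0, 2 and 2. WT31 had 9.56, 6.0, 4.77, 5.73 and 2.21 CPM, D4M 3.17, 8.75, 1.78, 4.53 and 5.32 CPM and RET 2.21, 4.79, 3.07, 2.6 and 2.16 CPM. HCmel12 had 1.93, 2.59, 2.43, 0.969 and 2.36 CPM. The other 4 lines overlap, and B16F10 luc2 lies below all of their libraries. HCmel12 exceeded B16F10 luc2 20.3-fold (log2 fold change 4.35, standard error 0.83, adjusted p = 4.98e-05).

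Itgb4, which pairs with Itga6 alone and anchors hemidesmosomes to laminin, was highest in RET. The RET libraries had 49.9, 55.1, 56.7, 49.6 and 47.9 CPM, compared with 3.01, 2.57, 3.72, 2.97 and 3.07 CPM in B16F10 luc2 and 3.94, 2.13, 2.67, 1.88 and 1.77 CPM in WT31. D4M had 1.24, 2.18, 1.56, 1.24 and 1.19 CPM and HCmel12 1.08, 1.11, 1.05, 1.01 and 0.528 CPM. No RET library overlaps with another line, whereas B16F10 luc2 and WT31 overlap, and WT31 overlaps with D4M. RET was 16.9-fold above B16F10 luc2 (log2 fold change 4.08, standard error 0.14, adjusted p = 1.61e-17) and 54.6-fold above HCmel12 (log2 fold change 5.77, standard error 0.21, adjusted p = 3.07e-18). WT31 was above D4M by a factor of 1.63 (log2 fold change 0.71, standard error 0.23, adjusted p = 0.00765). Its partner Itga6 was lower in RET than in D4M and WT31.

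Itgb7, which pairs with Itga4 and Itgae on lymphocytes, was found mainly in D4M. The D4M libraries had 6.29, 7.15, 9.97, 7.37 and 9.02 CPM and the HCmel12 libraries 0.281, 0.438, 0.243, 0.525 and 0.366 CPM. B16F10 luc2 had counts of 1, 0, 3, 1 and 3, WT31 of 2, 0, 0, 0 and 0 and RET of 0, 1, 0, 0 and 1, all at or under the floor of 3. D4M lies above all other libraries and HCmel12 above those of HIM-melanoma. D4M exceeded HCmel12 20.9-fold (log2 fold change 4.39, standard error 0.29, adjusted p = 3.19e-13). The ratio of summed counts of D4M to WT31 was 525-fold (95% counting interval 145 to 4340) and that of HCmel12 to WT31 24.4-fold (95% counting interval 6.38 to 207). All WT31 counts in these ratios came from replicate 1, and without it the ratios have no upper limit. Itgae, its other partner, had at most 8 counts in any library.

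Itgb2, the common chain of the leukocyte integrins, was at or under 1 count in every WT31 library. D4M had 1.98, 1.07, 2.36, 2.98 and 1.7 CPM and RET 0.869, 0.297, 0.433, 0.52 and 0.501 CPM. B16F10 luc2 had 0.0793, 0.332, 0.33, 0.247 and 0.231 CPM, HCmel12 0.12, 0.0797, 0.162, 0.363 and 0.0406 CPM and WT31 0.0379, 0, 0, 0 and 0.0369 CPM. D4M lies above all other libraries, and B16F10 luc2 overlaps with RET and HCmel12. The counts were 1, 0, 0, 0 and 1 in WT31 and 3, 2, 4, 9 and 1 in HCmel12, so that the lowest HCmel12 library held as many counts as the highest WT31 libraries, under the floor of 3, and these lines are not told apart library by library. The ratio of summed counts of HCmel12 to WT31 was 10.1-fold (95% counting interval 2.43 to 89.2) and that of D4M to WT31 132-fold (95% counting interval 36.2 to 1100). In the fit, HCmel12 against WT31 was the weakest of the 4 differences (log2 fold change 2.28, standard error 0.62, adjusted p = 0.0022), and it was 1.92 without HCmel12 replicate 4. The 10 leukocyte markers summed to between 72.8 and 109.3 CPM in D4M and to at most 28.1 CPM in the other lines, of which Laptm5 made up a mean of 84.5 CPM in D4M and 15.1 CPM in WT31.

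Levels of different genes were compared per transcript length, in TPM (transcript abundance scaled to a total of 1000000 per library), in 24 libraries (D4M n = 4, without replicate 1). The alpha chains summed to 658 ± 51.3 TPM in D4M, 392 ± 80.4 in WT31, 172 ± 20.1 in HCmel12, 161 ± 21 in RET and 157 ± 9.07 in B16F10 luc2. The beta chains summed to 699.5 ± 47.5 TPM in D4M, 367 ± 51 in WT31, 334 ± 38.1 in HCmel12, 284 ± 18.4 in B16F10 luc2 and 276 ± 26.3 in RET. The alpha sum was thus close to the beta sum in WT31 and D4M and below it in the other lines. Itga6 made up 61% ± 1.92 of the alpha-chain TPM in RET, 50.4% ± 5.79 in WT31, 49.2% ± 3.53 in HCmel12 and 35.5% ± 1.24 in D4M. In B16F10 luc2 it made up 23.9% ± 3.06, beside 23.4% ± 1.72 for Itga5 and 22.4% ± 1.2 for Itga4, and the 3 chains differed there by less than the spread of the replicates. The second chain was Itga4 in WT31 (23.5% ± 2.27), Itga3 in D4M (21.9% ± 2.43), and Itgav in RET (12.5% ± 0.716) and HCmel12 (18.1% ± 2.05). Itgb1 made up 98.6% ± 0.276 of the beta-chain TPM in WT31, 88.6% ± 1.23 in B16F10 luc2, 85.8% ± 2.63 in D4M, 83.3% ± 1.57 in RET and 83% ± 1.48 in HCmel12. The remainder in HCmel12 was mainly Itgb5 (15.5% ± 1.5), and Itgb4 took 5.1% ± 0.397 in RET and at most 0.274% ± 0.0454 in the other lines. These shares describe RNA, and no test was made on them.

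**Figure D4:**
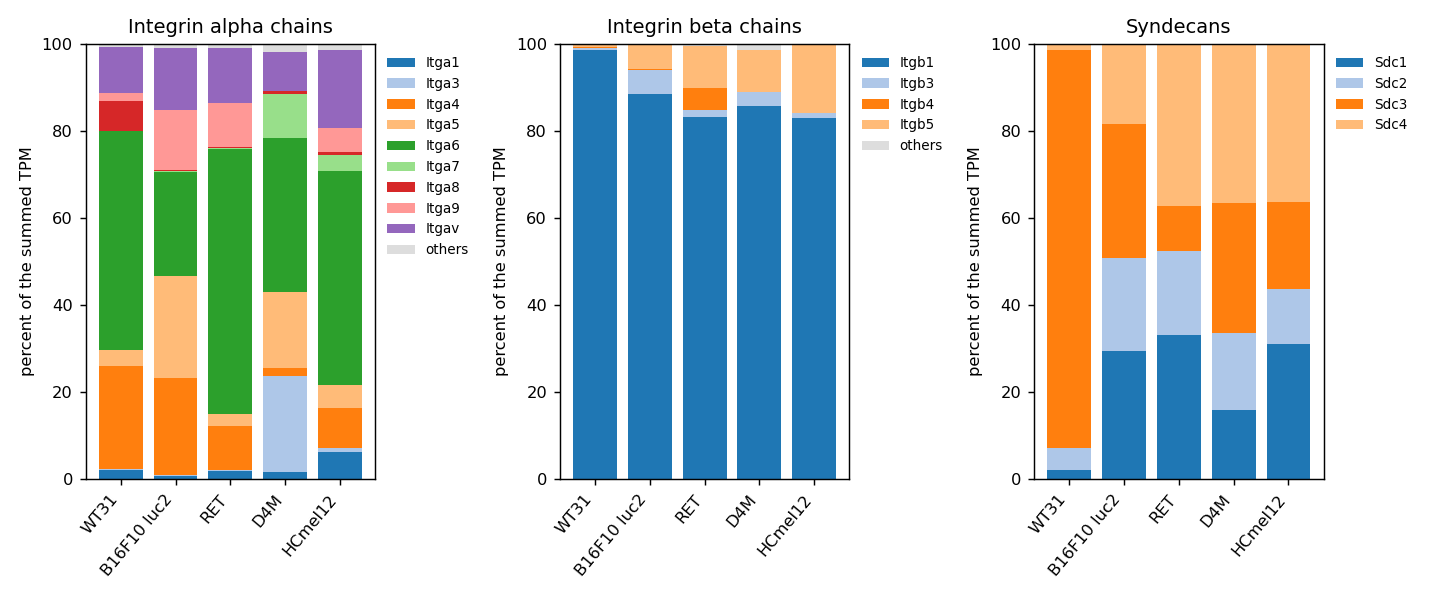
Mean percent of the summed TPM of the alpha chains (left), beta chains (middle) and syndecans (right) taken by each gene in each line (n = 5 libraries, D4M n = 4), with genes that never reach 2% pooled as others. Itga6 forms the largest alpha block in every line (23.9% to 61.0%), Itgb1 takes at least 83.0% of each beta bar, and Sdc3 fills 91.6% of the WT31 syndecan bar.

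The syndecans were dominated by Sdc3 in WT31. Sdc3 (chr4:130792537-130826319), the syndecan of neural tissue, had 4139, 3410, 4157, 3891 and 4111 CPM in WT31. The next line, D4M, had 416, 432, 445, 398 and 391 CPM, and B16F10 luc2 had 107, 100.2, 104, 118 and 95.6 CPM. HCmel12 had 91.4, 95, 94.3, 67.8 and 85.6 CPM and RET 35.2, 35.6, 33.7, 31.1 and 32.2 CPM. WT31, D4M and RET lie apart from all others, while HCmel12 and B16F10 luc2 come close without overlap. WT31 was 9.45-fold above D4M (log2 fold change 3.24, standard error 0.07, adjusted p = 1.42e-22) and 117-fold above RET (log2 fold change 6.87, standard error 0.08, adjusted p = 4.97e-28), and all 10 pairs passed. With this, the 4 syndecans summed to 1564 ± 112 TPM in WT31, against 452 ± 23.6 in D4M, 138 ± 18.1 in HCmel12, 121 ± 6.27 in RET and 110.1 ± 5.45 in B16F10 luc2. Sdc3 took 91.6% ± 0.622 of that sum in WT31 and 10.3% ± 0.525 in RET. Of its 31-base sequences, 6.3% are shared with other genes.

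The promoter of Sdc3, chr4:130792287-130792586 on the plus strand, lies at the gene's outer start and is printed because WT31 was above each of the other lines for this receptor. The window has a GC content of 77.7% with 44 CpG and 3 GC box matches, beside a median of 52.7% and 7 CpG over all promoters.
Sdc3: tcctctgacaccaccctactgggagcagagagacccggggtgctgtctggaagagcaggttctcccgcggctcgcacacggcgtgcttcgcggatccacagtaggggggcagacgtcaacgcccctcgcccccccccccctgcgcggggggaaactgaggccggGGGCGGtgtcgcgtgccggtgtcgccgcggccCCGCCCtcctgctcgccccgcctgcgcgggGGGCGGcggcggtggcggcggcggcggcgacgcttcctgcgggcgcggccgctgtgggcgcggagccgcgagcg

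The other syndecans had their highest mean CPM in D4M. Sdc4, which joins integrins in focal adhesions, had 291 ± 25.9 CPM in D4M, 82.8 ± 7.15 in HCmel12, 72.9 ± 4.06 in RET, 32.8 ± 2.02 in B16F10 luc2 and 29.4 ± 5.9 in WT31. It was lower in WT31 and B16F10 luc2 than in both lines of LM-melanoma, and RET against HCmel12 missed the threshold (log2 fold change -0.18, standard error 0.09, adjusted p = 0.0717). Without WT31 replicate 1 (adjusted p = 0.0404), WT31 replicate 5 (adjusted p = 0.0308) or HCmel12 replicate 4 (adjusted p = 0.0226), that last comparison passed as well. Sdc1, the epithelial syndecan, ranged from 48.5 ± 7.63 CPM in WT31 to 131 ± 19.1 CPM in D4M. Sdc2 was high in D4M (205 ± 21.1 CPM) and WT31 (174 ± 14.6 CPM) and lower in B16F10 luc2 (56.3 ± 4.3), RET (55.4 ± 4.09) and HCmel12 (42.2 ± 2.02). In TPM, Sdc2 was not higher in D4M (79.7 ± 9.4, n = 4) than in WT31 (80.3 ± 5.8).

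Ddr2, a receptor tyrosine kinase for fibrillar collagen, was lower in WT31 than in each of the other lines. WT31 had 2.84, 1.94, 2.44, 3.31 and 1.88 CPM. RET had 85.8, 89.3, 86.8, 78.8 and 84.4 CPM, B16F10 luc2 129, 134, 138, 134 and 123 CPM and D4M 226, 262, 198, 270.5 and 264 CPM. HCmel12 had 83.2, 77, 75.4, 143 and 89.2 CPM, its replicate 4 being the highest. WT31 lies more than an order of magnitude below every other library, D4M above every other, and HCmel12 overlaps with RET and, through replicate 4, with B16F10 luc2. RET was 34.8-fold above WT31 (log2 fold change 5.12, standard error 0.26, adjusted p = 2.44e-15) and D4M 99.3-fold (log2 fold change 6.63, standard error 0.26, adjusted p = 6.41e-18). Ddr1, its relative for collagen of basement membranes, went the other way in D4M, where it had 53.9 ± 6.92 CPM, compared with 76.2 ± 8.74 in WT31, 115 ± 12 in RET, 121 ± 8.19 in HCmel12 and 124 ± 7.15 in B16F10 luc2. D4M was below WT31 by a factor of 1.42 (adjusted p = 1.68e-05).

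Cd44 and Dag1 were abundant in all 5 lines, and their line means differed by at most a factor of 2.33. Cd44 ranged from 441 ± 29.8 CPM in RET to 802 ± 63.6 CPM in D4M, a factor of 1.82 (log2 fold change 0.86, standard error 0.07, adjusted p = 2.24e-11). Dag1 ranged from 266 ± 8.47 CPM in B16F10 luc2 to 624 ± 69.4 CPM in WT31, a factor of 2.33 (log2 fold change 1.22, standard error 0.06, adjusted p = 2.75e-15), with 559 ± 25.3 CPM in HCmel12. For Dag1, WT31 and HCmel12 were above the other 3 lines, 1 line of HIM- and 1 of LM-melanoma.

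The comparison of HIM- with LM-melanoma asks which receptors differ in 1 direction between all 3 lines of the one and both lines of the other. Itga1, Itga3, Itga7, Itgb5 and Itgb7 were lower and Itgal and Itgb4 higher in HIM-melanoma in all 6 comparisons, 7 of 28 tested members (25%), beside 12.9% of all tested genes (6.4% lower and 6.53% higher). The 6 comparisons share their libraries and are not independent. Where the 5 lower members are concerned, the fitted mean was highest in D4M for all of them. For Itga1, however, D4M and HCmel12 did not pass (adjusted p = 0.577) and changed order under the library total. The weakest of the 6 differences of each member was against HCmel12. For Itga1 it was -0.55 (WT31), for Itga3 -1.0 (WT31, adjusted p = 0.000461), for Itga7 -4.2 (B16F10 luc2), for Itgb5 -1.01 (RET) and for Itgb7 -2.46 (B16F10 luc2), all as log2 fold changes. Of the higher members, Itgb4 was highest in RET, and WT31 and B16F10 luc2 differed from D4M by 0.71 and 1.07. Neither Itga2 nor Itga4 was among the 7. For Itga2, WT31 was above HCmel12 while B16F10 luc2 and RET were below it, and for Itga4, RET did not pass against either line of LM-melanoma. When each library was left out in turn, 7 or 8 members passed, the added one being Sdc4 without WT31 replicate 1 or 5 or HCmel12 replicate 4. Sdc4 was also added with DESeq2 size factors (RET against HCmel12, adjusted p = 0.0398) and in the DESeq2 Wald test (adjusted p = 0.0485). When only the libraries of the compared lines were fitted, Sdc4 was added (adjusted p = 0.0195) and Itgal and Itgb7 were dropped, since they were then too low for a test in some comparisons. Without Itga1, which did not pass on the TPM scale, and Itgal, which could not be tested there, 5 of 26 tested members remained with log2(TPM + 0.1) (19.2%, all genes 12.1%).

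A line was taken to stand apart for a member when it passed with 1 sign against each of the other 4 lines and by at least 2 on the log2 scale. This held for 12 of the 28 tested members (42.9%, all genes 18.7%). WT31 was high for Sdc3 and Itga8 (2.29% of all tested genes) and low for Itgb2, Itgb5 and Ddr2 (1.82%). D4M was high for Itga2, Itga3, Itga7 and Itgb7 (6.91%) and low for Itga9 (3.67%), RET was high for Itgb4 (0.564%), and B16F10 luc2 was low for Itga2 and Itgb8 (0.892%). HCmel12 stood apart for no member, whereas it was high for 1.77% and low for 0.872% of all tested genes. The difference of Itga2 in B16F10 luc2 from RET and that of Itgb2 in WT31 from HCmel12 were near the limit of 2, as given above, and the latter rests on libraries at or under the floor of 3 counts in WT31. On the TPM scale Itga2 and Itgb8 in B16F10 luc2 and Itgb2 in WT31 no longer stood apart, and the call of Itgb2 between WT31 and HCmel12 was lost (adjusted p = 0.0605 with log2(TPM + 0.1) and 0.453 with log2(TPM + 1) in limma), as was that of Itga2 between B16F10 luc2 and RET with log2(TPM + 1) (adjusted p = 0.612 in limma). Both also no longer stood apart when only the libraries of the compared lines were fitted, and Itga2 in B16F10 luc2 did not in edgeR's quasi-likelihood test.

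The ligands of these receptors were measured in the same cells, from a list of 37 genes of which 33 could be tested. The list was drawn up with earlier results of these data known. None was higher and 8 were lower in HIM-melanoma in all 6 comparisons (24.2%, all genes 12.9% in either direction). Relative to D4M, 28 of the 33 were lower in B16F10 luc2 (84.8%, all genes 38.9%), 26 in RET (78.8%, all genes 38.3%) and 23 in WT31 (69.7%, all genes 38.6%). The median log2 fold changes were -3.73, -2.69 and -2.95, beside medians of all tested genes between -0.01 and 0.01. Relative to HCmel12 the medians were -1.42 in B16F10 luc2, -0.29 in RET and 0.52 in WT31. Spp1, which codes for the integrin ligand osteopontin, had 18230 ± 1176 CPM in D4M, 42.9 ± 12.2 in HCmel12, 7.62 ± 6.37 in RET, 5.86 ± 1.57 in WT31 and 0.987 ± 0.151 in B16F10 luc2. Lama5, a laminin chain bound by Itga3 and Itga6 receptors, had 316 ± 23.6 CPM in D4M, 61 ± 12.7 in HCmel12, 25.5 ± 6.61 in WT31, 8.21 ± 0.833 in RET and 4.32 ± 0.771 in B16F10 luc2.

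Of 42 proteins that bind integrin tails or act next to them, 40 could be tested, and 3 were higher and 4 lower in HIM-melanoma in all 6 comparisons (17.5%, all genes 12.9%), or 6 in all without RET replicate 3 or HCmel12 replicate 4. The talins, kindlins, Ptk2 and Ilk were not among them. Lims2, an adaptor that binds Ilk, varied widely among replicates and had 10.7 ± 11.8 CPM in RET (5.54 ± 2.58, n = 4, without replicate 3, which had 31.5 CPM), 5.1 ± 2.53 in WT31 and 3.3 ± 1.7 in B16F10 luc2, compared with 0.374 ± 0.282 in D4M and 0.395 ± 0.058 in HCmel12. Arhgef6, an exchange factor for Rac1 that binds parvins, had 3.63 ± 0.839 CPM in D4M and 1.53 ± 0.41 in HCmel12 and at most 0.398 CPM in any library of HIM-melanoma. Lpxn, a relative of paxillin, was low in all lines, with 0.54 ± 0.164 CPM in D4M and 0.371 ± 0.181 in HCmel12. D4M exceeded WT31 for 24 of the 40 (60%, all genes 38.6%), B16F10 luc2 for 26 (65%, all genes 38.9%), RET for 31 (77.5%, all genes 38.3%) and HCmel12 for 30 (75%, all genes 36.8%).

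Among 18 tested partners of syndecans and Cd44, none was higher and 3 were lower in all 6 comparisons (16.7%, near the 12.9% of all genes in either direction). They were the hyaluronan synthase Has2, the hyaluronidase Hyal2 and Prkca, the kinase that Sdc4 binds. Hyal2 had 51.7 ± 5.18 CPM in D4M, 39.1 ± 5.44 in HCmel12 and 26 ± 4.17, 18.5 ± 2.97 and 17.7 ± 0.755 in WT31, B16F10 luc2 and RET, while Has2 stayed under 1 CPM on average in every line. Of 21 tested genes of the dystroglycan complex and its glycosylation, 2 were higher and 3 lower (23.8%, all genes 12.9%), the lower ones being Dtna, Dmd and Agrn. Dmd, the dystrophin gene, had 19.3 ± 5.86 CPM in HCmel12, 10.7 ± 2.02 in D4M, 3.4 ± 3.38 in WT31 (1.89 ± 0.0817, n = 4, without replicate 1, which had 9.44 CPM), 3.12 ± 0.608 in RET and 0.206 ± 0.0657 in B16F10 luc2. Of 14 tested other matrix receptors, 2 were lower and none higher (14.3%, near the 12.9% of all genes). Mrc2, a receptor that takes up collagen, had 204 ± 10 CPM in D4M, 6.42 ± 0.617 in HCmel12 and under 1 CPM in each line of HIM-melanoma, and Lrp1, an endocytic receptor of matrix proteins, had 840.2 ± 36.9 CPM in D4M and at most 75.7 ± 16.7 elsewhere.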

How the data were processed

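Total RNA of 25 cultures was sequenced. The labels name BGISEQ-500 protocols for the libraries, whereas the study's methods name an Illumina instrument. Per the labels, reads were trimmed with Trim Galore 0.6.4 and quantified with kallisto (version 0.4.6 in the submitters' processing notes), and the authors deposited estimated counts per gene, which need not be whole, and TPM. Counts of 25 libraries and TPM of 24 (not D4M replicate 1) were used here. Gene coordinates were taken from GENCODE M21 (GRCm38), promoters from RefSeq (GRCm38.p6) and symbols from a table of gene IDs, in which 55144 of 55385 gene IDs could be given a symbol. Members and gene lists were chosen with earlier results of these data known. An allele of D4M and a few listed genes are not reported here.

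From the deposited counts, genes were filtered with filterByExpr by line (15247 kept), scaled with TMM factors and fitted with voom and limma 3.58.1 (edgeR 4.0.16, R 4.3.3), with 1 mean per line. The study's methods name voom and limma, and the filter, the factors and the model were chosen here. All 10 pairs of lines were contrasted, with Benjamini-Hochberg adjustment over all tested genes of a comparison and a threshold of 0.05, two-sided. All adjusted p in the text come from this voom-limma fit unless another is named. Levels of genes were compared in the TPM the authors deposited. Ratios of low counts carry exact binomial 95% intervals, which cover counting error only. Named were Itga2 and Itga4, members with 1 sign in the 6 comparisons between HIM- and LM-melanoma, members for which a line stood apart, the chains with the highest TPM, and up to 3 genes of each list. Alternatives were DESeq2 1.42.0, edgeR's quasi-likelihood test, other scalings and filters, TPM, a fold limit and leaving out each library. On simulated counts of WT31 and D4M (14695 genes), 79 of 100 genes changed 2-fold and 95 of 100 changed 4-fold were called, with 12 false calls. There the lines shared 1 mean per gene, apart from 200 genes changed in D4M, as many up as down. The simulation therefore does not test the scaling between lines that differ in most genes, nor the false calls in that case. Promoter motifs were searched on both strands.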

Additional observations from a re-analysis of the deposited data

Results flagged for a closer look

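In 140 groups of 5 libraries (28 tested members in 5 lines), the highest or lowest library lay far from the others in 11, its gap to the nearest being more than 0.71 of the whole range. Chance gives about 1 in 20 groups. Of these 11 libraries, 3 were WT31 replicate 1, with 4.017 CPM for Itgb5 (next highest 1.966), 0.3413 CPM for Itga2b (next highest 0.2277) and 0.07585 CPM for Itgb7, where the other WT31 libraries had 0 counts and this one 2. HCmel12 replicate 4, which also had the highest melanocyte marker sum of its line, had 143.3 CPM for Ddr2 (next highest 89.23). RET replicate 3 had 1.496 CPM for Itga3 (next highest 0.5941), and B16F10 luc2 replicate 3 had 0.2885 CPM for Itga2, from 7 counts. The remaining high values were 684.2 CPM for Itga3 in D4M replicate 3 and 336.1 CPM for Sdc4 in D4M replicate 2. Low values were 0.5156 CPM for Itga7 in B16F10 luc2 replicate 1, 0.5328 CPM for Itga9 in D4M replicate 4 and 0.5285 CPM for Itgb4 in HCmel12 replicate 5, each from 12 or 13 counts. The reason for these values was not tested.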

How the results depend on the processing

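The tests describe 5 cultures of each of 5 lines, so that line, genotype and, for D4M and HCmel12, medium cannot be told apart, and members with few counts (Itgal, Itgb2, Itgb7 and, in B16F10 luc2, Itga2 and Itgb8) are limited by depth. Of 1936 refits of the 53 printed fold changes, 1868 kept their direction and side of the threshold, 40 were no longer past it, 24 newly passed and 4 changed sign. With at least 10 counts required in every library, 4 members passed in the 6 comparisons between HIM- and LM-melanoma, since Itga3, Itga7, Itgal and Itgb7 were then not tested and Sdc4 joined, 6 stood apart in a line, 11 were highest in D4M and called (20%, 30% and 55% of the 20 members then tested, beside 13%, 4.82% and 17.9% of all genes), and the lists gave 4 tail partners, 3 dystroglycan genes and 1 other receptor. With log2(TPM + 1), 4 of 26 tested members (15.4%, all genes 12%, beside 25% and 12.9% in the main fit) and 3 dystroglycan genes passed in all 6. Here Itga1 and Itgb4 did not pass and Itgal was not tested. With log2(TPM + 0.1), 5 of 26 members (19.2%, all genes 12.1%) and 3 dystroglycan genes passed. In both TPM fits, 12 of 26 members were highest in D4M and called (46.2%). This held for 11.7% of all genes with log2(TPM + 1) and 11.2% with log2(TPM + 0.1). The cause was not tested. With a fold limit of 1 on the log2 scale added, 15 members were called for WT31 against RET (53.6%, all genes 31.2%), 17 for WT31 against D4M (60.7%, all genes 36.7%), 17 for WT31 against HCmel12 (60.7%, all genes 30%) and 13 for B16F10 luc2 against RET (46.4%, all genes 14.3%), 4 members (14.3%, all genes 4.13%), 3 tail partners, 4 ligands, 1 syndecan partner, 1 dystroglycan gene and 1 other receptor passed in all 6, and 7 members were highest in D4M and called (25%, all genes 10.5%), as fewer genes can pass this limit. The log2 fold change of Itga1 between D4M and HCmel12, 0.10, was -0.07 under the library total alone, and that of Itga4 between RET and HCmel12 lay between -0.05 and 0.16 when each library was left out, neither passing. Leaving out each library gave 22 to 25 called members for WT31 against B16F10 luc2, 23 to 27 for WT31 against HCmel12, 11 to 13 that stood apart and 7 to 8 in all 6 comparisons. Without HCmel12 replicate 4, the members called against HCmel12 were 23 for D4M, 23 for B16F10 luc2, 24 for WT31 and 19 for RET. Without D4M replicate 1, 24 members were called for D4M against HCmel12 and 26 for WT31 against D4M. Same-numbered replicates of different lines did not deviate together (50 pairs, correlations -0.0909 to 0.1045), so that the numbers do not pair the libraries. With the replicate number as a block, 7 members passed in all 6 comparisons (25%, all genes 13.1%) and 12 stood apart (42.9%, all genes 18.6%). For B16F10 luc2 against RET, 22 in place of 20 members were then called (78.6%, all genes 51.5%), and 9 in place of 8 ligands passed in all 6. Of the 25 libraries, 3 correlated best with their own number.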
